A study of Mus musculus with 2 samples.

Results

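Cycling fibroblasts are here those fibroblasts of the vein grafts that held RNA of proliferation genes, as cells do while copying their DNA or dividing. A cell barcode was counted as one when it had at least 500 genes, at least 1000 UMIs (single captured RNA molecules) and at most 10% mitochondrial UMIs, when Col1a1, Col1a2, Col3a1 and Dcn together took at least 1.5% of its UMIs, when Cdh5 and Sox10, genes of endothelial and Schwann cells, were at 0, and when at least 3 of the 5 proliferation genes Mki67, Top2a, Cenpf, Ube2c and Prc1 had a UMI. The rule found 130 cells among 24349 barcodes, 26 of them conventional and 104 No-Touch. They lay among 12830 barcodes that met the fibroblast gates alone, 4918 and 7912. Of the 130 cells, 1 conventional and 14 No-Touch ones passed the 95th percentile of other fibroblasts for neither replication nor mitotic genes. The members were chosen by their measured UMIs of these genes, so all comparisons of cycling with other fibroblasts are descriptions.

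Single cells of mouse vein grafts, veins joined into the arterial circulation, were profiled in 2 libraries, 1 of conventional and 1 of No-Touch grafts. No-Touch harvest is known as taking the vein with its surrounding tissue. Animals of both groups were C57BL6/J mice aged 10 to 12 weeks, and the labels name no transgene or drug for either group. Tissue was dissolved in papain, later joined by collagenase and dispase, before live nucleated cells lacking CD45, the surface protein of leukocytes, were sorted and captured in droplets with 10x Genomics reagents. The sources used here do not give the number of animals or grafts per library, the time after grafting or which of 2 kit versions each library had. With 1 library per group no difference has a replicate check, no test was possible, and all values compare these libraries, not the graft types. Intervals are exact at 95% and cover counting error only.

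In a dividing cell, the replication helicase and its loaders copy DNA in S phase, and cyclin B with the kinase Cdk1 then drives entry into mitosis. Kinetochore proteins tie chromosomes to the spindle, kinesins move them, and the anaphase ubiquitin ligase with Cdc20 releases the sister chromatids. Adventitial fibroblasts of grafted veins are known to divide and lay down matrix as the vessel wall thickens.

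Many genes of late cell cycle phases carry a short element near their start, the cell cycle genes homology region (CHR), through which the DREAM and B-MYB complexes act, while genes of S phase more often carry E2F sites. The promoters of 3 of the genes with the largest ratios in cycling cells are shown because their CHR letters lie close to the start. Each is the 120 bases before the transcript start, 5′ to 3′ on the gene's strand, from RefSeq on GRCm38.p6, and capitals mark the CHR letters TTTGAA or TTTAAA. The Cdk1 promoter spans chr10:69352913-69353032 on the minus strand, the Cenpa promoter chr5:30666766-30666885 on the plus strand and the Cdc20 promoter chr4:118437344-118437463 on the minus strand.
Cdk1: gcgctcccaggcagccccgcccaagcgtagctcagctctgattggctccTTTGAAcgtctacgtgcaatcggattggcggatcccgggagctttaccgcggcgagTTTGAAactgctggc
Cenpa: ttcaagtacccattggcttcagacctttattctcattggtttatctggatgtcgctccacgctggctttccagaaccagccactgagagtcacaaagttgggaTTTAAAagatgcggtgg
Cdc20: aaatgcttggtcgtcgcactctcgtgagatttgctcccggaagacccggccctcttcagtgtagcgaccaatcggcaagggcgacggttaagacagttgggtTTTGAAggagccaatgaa
The letters begin 15 and 71 bases before the start in Cdk1, 17 in Cenpa and 18 in Cdc20. Promoters of 16 of 20 genes were in the RefSeq table, the 20 being the 5 proliferation genes of the rule and the 15 genes with the highest ratios below. In the 300 bases from 250 before to 50 after the start, on either strand, 15 of the 16 held TTTGAA or TTTAAA (93.8%), against 30.6% of 27025 genes. Cks2 was the exception. In the 250 bases before the start alone the counts were 10 of 16 (62.5%) against 28.1%. The E2F letters TTGGCGC or else TTCCCGC or else TTCGCGC or else TTGCCGC, searched on both strands and counted apart from the CHR letters, occurred in 4 of the 16 (25%; Mki67, Hmmr, Pclaf and Cdk1) against 10.9%. A match is a description of the letters and not a shown binding site, and TTTAAA reads the same on both strands.

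Across the whole series, the deposited libraries held 200851272 and 373319906 UMIs, and 10458 and 11525 barcodes passed the limits on genes, UMIs and mitochondrial share. Members held 1311713 conventional and 6816061 No-Touch UMIs, so that 3 UMIs, the limit a count of 0 allows, stand for 2.29 and 0.440 counts per 1000000 UMIs (CPM). The deepest member gave 9.08% of these UMIs in the first and 2.41% in the second. The libraries shared 22 barcodes, 0.185% of the conventional ones, 0 of them between members. A doublet score was cut at 0.8% per 1000 barcodes, which marked 8.37% of conventional and 9.22% of No-Touch barcodes. It marked 9 of 26 conventional members (34.6%, other fibroblasts 8.69%) and 11 of 104 No-Touch members (10.6%, other fibroblasts 9.03%).

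The cells carried fibroblast markers beyond those of the rule. The cycling side of the label was set by the rule itself, so the level of its gene Mki67, the protein that coats mitotic chromosomes, is a description. It ranged over the 26 conventional members from 16.1 to 1527 CPM with a median of 198, and over the 104 No-Touch members from 0 to 825 CPM with a median of 93.2. In other fibroblasts Mki67 was at 1.25 and 0.986 CPM. All 7 fibroblast markers that the rule did not use (Lum, Pdgfra, Fbln1, Serpinf1, Mfap5, Fstl1 and Pcolce) were present, and their summed level was 6970 CPM in conventional and 6903 CPM in No-Touch members against 6464 and 7701 CPM in other fibroblasts. No member fell under 1364 CPM of these markers in the conventional or 2347 CPM in the No-Touch library. The sum hides single markers that differed. Fbln1 was at 264 and 200 CPM against 704 and 455 CPM, and Lum, Pdgfra, Serpinf1 and Pcolce were also lower in both libraries. Fstl1 was higher in both, and Mfap5 in the conventional library alone.

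Summed over members, markers of other cells lay far below the fibroblast markers, but single members held much of them. The 5 T and NK cell markers summed to 3.81 CPM in conventional members, with 4 of 5 at 0, and to 112 CPM in No-Touch members, with 0 of 5 at 0, against 2.72 and 4.25 CPM in other fibroblasts. In the No-Touch library 8 members held 10 or more UMIs of them, and 1 held 10 or more of Jchain, the joining chain of secreted antibodies. Ptprc, which encodes CD45, had a UMI in 1 of 26 and 17 of 104 members. Neutrophil markers summed to 7.62 and 76.3 CPM, with 2 No-Touch members of 10 or more UMIs of S100a8. The 7 mural cell markers, those of smooth muscle and pericytes, were at 188 and 175 CPM against 191 and 135 CPM in other fibroblasts, with 10 or more UMIs in 7 conventional and 21 No-Touch members, and the 4 B cell markers were at 0 in all conventional members. Of the mural markers, Cspg4 was at 44.2 and 37.6 CPM against 18.0 and 16.4 CPM, or 31.4 and 22.9 CPM in others of equal depth. It had a UMI in 18 of 26 and 67 of 104 members. Notch3, Des and Mcam were higher in both libraries by less, Ndufa4l2 was lower in both, and Rgs5 and Myh11 had no common order. Blood and lymphatic endothelial markers lay between 19.4 and 31.3 CPM in members of both libraries. The highest single No-Touch members held 4768 CPM of T and NK, 4611 CPM of neutrophil and 2518 CPM of mural markers. In conventional members the highest were 60.7, 134 and 1081 CPM. Ptprc, Pecam1, Rgs5 or Myh11 had a UMI in 13 of 26 and 66 of 104 members. Of other fibroblasts 2342 of 4892 and 4264 of 7808 held none of these 4 genes. The part of other cell types in the results was not tested, but values without such cells are given where they differ.

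Beyond the fibroblast gates, 72 conventional and 202 No-Touch barcodes had 3 of the 5 proliferation genes. Cdh5 was present in 19 and 47 of them, Sox10 without Cdh5 in 7 and 15, and 20 and 36 had too few UMIs of the fibroblast genes. Fibroblasts made up 36.1% and 51.5% of such barcodes. At the gate itself, 6 and 5 barcodes lay between 1% and 1.5% of UMIs, just outside, and 1 and 7 members lay between 1.5% and 2%, just inside.

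Cycling cells were a larger share of No-Touch than of conventional fibroblasts at the full depth of each cell. The conventional share was 0.529% (0.346 to 0.774) and the No-Touch share 1.31% (1.08 to 1.59), a ratio of 2.49 with bounds of 1.39 and 4.60 when each share's far limit is taken. With every cell thinned to 10000 UMIs, leaving out 374 and 355 shallower cells, the shares were 0.418% (19 of 4544) and 0.622% (47 of 7557), a ratio of 1.49 (0.701 to 3.28). Thinned to 5000 UMIs, leaving out 103 and 184 cells, they were 0.249% (12 of 4815) and 0.388% (30 of 7728), a ratio of 1.56 (0.603 to 4.30). After thinning, the intervals of the libraries overlapped. Overlap is not a test, so at equal depth these cell numbers do not show whether the shares differ. Neutrophils, which do not divide, gave 0 of 331 and 0 of 52 cells by the same rule at median depths of 2706 and 4575.5 UMIs, which allows shares of up to 0.906% and 5.77% by a limit of 3 counts, or 1.11% and 6.85% by the exact interval. That background is too shallow to set a level for the deeper fibroblasts.

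**Figure D1:**
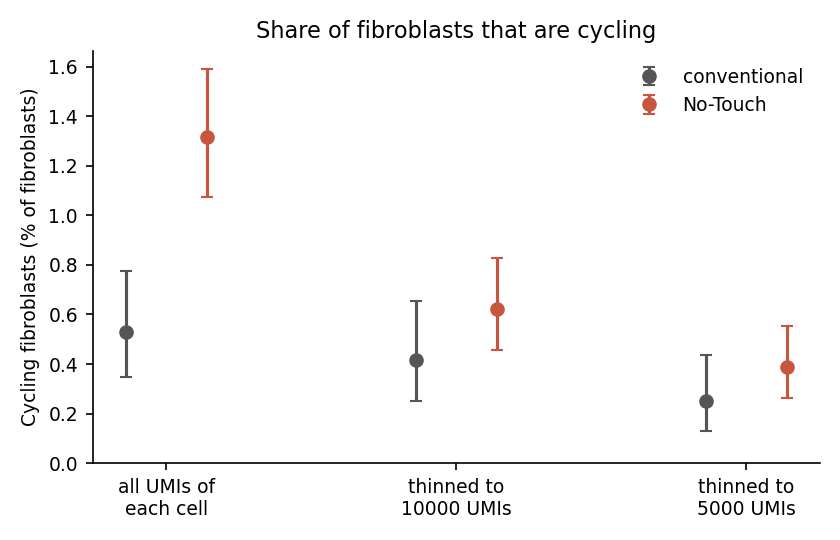
Share of fibroblasts that met the cycling rule (vertical axis, percent) in each library, at the full depth of every cell and after thinning each cell to 10000 or 5000 UMIs. Points are shares and bars exact 95% intervals that cover counting error only. The No-Touch point lies above the conventional one at each depth, and the bars overlap after thinning.

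More UMIs were captured in cycling fibroblasts than in other fibroblasts. The median was 49376.5 UMIs (lowest 12462, highest 119110) in conventional members against 20605 in other conventional fibroblasts, a ratio of 2.40. In No-Touch members it was 61945.5 UMIs (8837 to 163986) against 32169, a ratio of 1.93. Median gene numbers were 6736.5 against 4418.5 and 7457.5 against 5598.5. A deeper cell also has a greater chance of a UMI of each rule gene. Among cells called after thinning to 10000 UMIs, the original depth was 1.64 and 1.82 times that of the cells not called. The doublet score marked 34.6% of conventional members against 8.69% of other fibroblasts, and 10.6% against 9.03% in the No-Touch library. The part of detection, doublets or RNA content in the depth was not tested. Mitochondrial shares had medians of 2.04% and 2.22% in conventional and 1.66% and 1.63% in No-Touch cycling and other fibroblasts. Since depth differs, ratios are given below also against other fibroblasts weighted to the members' depth. The upper quartile of conventional members was 66514 UMIs, while that of other conventional fibroblasts was 27732 and their highest 94853. Conventional values called equal depth below thus lean on few deep cells, and a draw of matched depth allowed only 26 conventional ones.

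Cells with more rule genes had more RNA of the 74 mitotic genes, but not always of the replication genes. The mitotic genes, summed, were at 123 CPM in conventional fibroblasts with 0 rule genes, 131 with 1, 358 with 2, 398 with 3, 1844 with 4 and 5826 CPM with 5. In No-Touch fibroblasts the same steps were 128, 144, 274, 848, 2547 and 5600 CPM. The step from 2 to 3 genes, where the rule divides, was small in the conventional library, where only 4 members had exactly 3. The 32 replication genes were at 592, 432 and 1311 CPM in conventional and 971, 999 and 1101 CPM in No-Touch members with 3, 4 and 5 rule genes, against 228 and 259 CPM in fibroblasts with 0 and 519 and 388 CPM in those with 2. Conventional members with 4 thus lay below conventional fibroblasts just outside the rule. Conventional members with all 5 rule genes numbered 15 of 26 and No-Touch members 46 of 104.

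Members differed widely among themselves in phase. Replication genes had a median of 6.08 UMIs per 10000 (1.51 to 30.3) in conventional and 5.06 (0.494 to 40.6) in No-Touch members, against 2.12 and 2.50 in other fibroblasts. Mitotic genes had a median of 30.7 (1.97 to 149) and 22.2 (0.573 to 136), against 1.09 and 1.20. The members of the 2 libraries overlapped over nearly their whole range. Taking the 95th percentile of other fibroblasts in the same library as a mark, 15 conventional members lay above it for both groups of genes, 8 for mitotic genes alone, 2 for replication genes alone and 1 for neither. In the No-Touch library the numbers were 53, 37, 0 and 14. Across members the levels of replication and mitotic genes had a Spearman rho of 0.46 (n = 26) and 0.36 (n = 104), a description over cells that share a library and a depth.

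**Figure D2:**
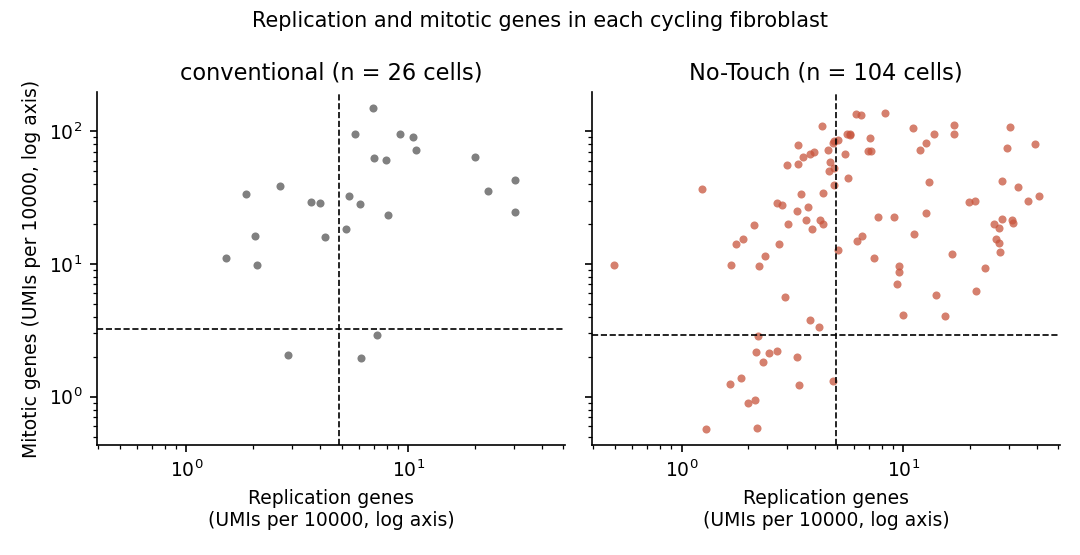
Each point is a cycling fibroblast, placed by its UMIs of 32 replication genes (horizontal axis) and 74 mitotic genes outside the rule (vertical axis), both per 10000 UMIs on log axes. Dashed lines are the 95th percentile of other fibroblasts of the same library. The upper right field holds 15 conventional and 53 No-Touch cells, the lower left 1 and 14.

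Histone and nucleotide genes, which the marks did not use, differed between these classes. Hist1h2ap, a replication-dependent histone H2A, was at 368 CPM in conventional and 678 CPM in No-Touch members above both marks, and at 6.28 and 16.2 CPM in those above the mitotic mark alone. Tk1, thymidine kinase, followed the same order with 88.9 and 108 CPM against 9.42 and 25.7 CPM. Rrm2, the small subunit of ribonucleotide reductase, was at 106 and 90.0 CPM against 12.6 and 3.61 CPM. Of the genes behind the mitotic mark, Cenpa, the histone H3 of centromeres, was at 254 and 187 CPM above both marks and 295 and 319 CPM above the mitotic mark alone. Ccnb2, cyclin B2, had no common order, at 164 and 133 CPM above both marks and 138 and 224 CPM above the mitotic mark alone. The 14 No-Touch members above neither mark had a median depth of 57716.5 UMIs, with Rrm2 at 1.04 CPM, Plk1, the polo-like mitotic kinase, at 0, Cdc20 in 1 of 14 cells and Ube2c in 7 of 14. In them the rule rests on a few UMIs of its own genes.

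Against other fibroblasts, cycling cells were set apart first by genes of DNA replication and mitosis. Of 3115 genes of at least 50 CPM in cycling or other fibroblasts, 104 (3.34%) were higher by 2 times or more in both libraries and 57 (1.83%) lower. Of the 104, 50 belonged to the first 10 gene lists, those of the cell cycle. The rule used this contrast, so nothing is read from these shares. Against other fibroblasts of the members' depth 71 of 3025 genes were higher (2.35%), 70 of them among the 104, and 5 lower (0.165%), all among the 57. Scaling moved the whole distribution. With CPM the median log2 ratio over these genes was 0.24 for the conventional and 0.15 for the No-Touch library, and -0.01 and -0.02 with TMM factors, which gave 76 higher and 104 lower genes.

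Every measured gene of replication origins and forks was at least 1.5 times higher in cycling cells of both libraries. These were 26 of 26, with median log2 ratios of 1.96 and 1.97, where 11.0% of all 8438 genes of at least 10 CPM were so and the median over all of them was 0.19 and 0.13. Only 9 genes of this list reached 10 CPM in other fibroblasts of either library. Most thus passed the minimum through the cycling cells alone, which largely set the count in advance. Mcm5, a subunit of the replicative helicase, was at 41.9 CPM in conventional and 36.4 CPM in No-Touch members against 2.1 and 1.7 CPM in other fibroblasts. Clspn, which signals stalled forks, was at 46.5 and 41.1 CPM against 1.9 and 1.5 CPM. Pcna, the sliding clamp of the polymerases, ranged from 0 to 504 CPM with a median of 34.0 over conventional members and from 0 to 775 CPM with a median of 67.5 over No-Touch members, against 36.4 and 48.7 CPM overall in other fibroblasts. The libraries overlapped fully for Pcna, and a member without a Pcna UMI was present in both.

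Genes that make nucleotides, chromatin and repair factors were higher too. Of 12 genes of nucleotide synthesis 8 were higher and 0 lower (medians 1.72 and 1.33), led by Tk1 with log2 ratios of 4.73 and 4.93 and Rrm2 with 4.71 and 4.29. Of all genes 11.0% were higher by 1.5 times in both libraries and 4.75% lower. Of the nucleotide list 8 genes reached 10 CPM in other fibroblasts of either library. Of 18 genes of chromatin assembly and histones 18 were higher (2.50 and 2.27), and 10 of that list reached 10 CPM in other fibroblasts of either library. Hist1h2ae was at 139 and 224 CPM, seen in 9 of 26 and 50 of 104 members, with 1 cell giving 50% of the conventional UMIs. H2afz, the histone variant H2A.Z, was in all 130 members, at 927 and 706 CPM against 206 and 207 CPM. Of 6 measured genes of replication-coupled repair, 6 were higher (3.12 and 3.03), but only 1 of that list reached 10 CPM in other fibroblasts of either library. Of 13 E2F and G1/S regulators 9 were higher and 0 lower (1.16 and 0.95), among them E2f1 with 2.11 and 1.56, while Ccnd2, cyclin D2, stood at 172 and 180 CPM against 197 and 193 CPM. Of this E2F and G1/S list 8 genes reached 10 CPM in other fibroblasts of either library.

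Genes of mitosis and of S phase had the largest ratios. By the smaller ratio of the 2 libraries, the first 15 genes outside the rule were Hmmr, Pclaf, Ccnb2, Tpx2, Cenpe, Birc5, Cdc20, Cenpa, Cdca8, Hist1h2ae, Hist1h2ap, Cdk1, Stmn1, Anln and Cks2. Hmmr (chr11:40701395-40733422 on mm10), which organises spindle poles, was at 161 CPM (139.9 to 184) in conventional and 121 CPM (112 to 129) in No-Touch members against 0.206 and 0.299 CPM in other fibroblasts, log2 ratios of 7.07 and 6.55. Pclaf, a partner of Pcna, was at 159 and 125 CPM with 6.88 and 6.49. Ccnb2 (chr9:70407692-70421547), cyclin B2, was at 135 CPM (116 to 156) and 146 CPM (137 to 155) against 0.734 and 1.21 CPM. Over conventional members it ran from 0 to 551 CPM with a median of 92.1, and over No-Touch members from 0 to 742 CPM with a median of 119, so that the libraries overlapped.

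Whole groups of the mitotic machinery were higher. Of 20 mitotic cyclins and kinases 20 were at least 1.5 times higher in both libraries (median log2 4.44 and 4.07), of 26 kinetochore and centromere genes 26 (4.30 and 4.17), and of 27 genes of kinesins, spindle and cytokinesis 26 (4.69 and 4.68). Tuba1c, a tubulin, was the 1 exception, with ratios of 1.24 and 0.52. Of all genes 11.0% were higher by 1.5 times in both libraries. Only 2 cyclin and kinase, 1 kinetochore and 5 kinesin and spindle genes reached 10 CPM in other fibroblasts of either library. Most thus passed the minimum through the cycling cells alone, which largely set these counts in advance. Of the condensin and anaphase lists 7 and 6 genes reached it in other fibroblasts. Cdk1 itself (chr10:69335146-69352938) was at 107 and 108 CPM, with a UMI in 15 of 26 and 81 of 104 members. Of 15 genes of condensin, cohesin and chromosome structure 13 were higher (2.62 and 2.40), with the condensin core Smc2 at 183 and 145 CPM against 11.5 and 11.3 CPM. Of 9 genes listed around the anaphase ubiquitin ligase, not all of them its subunits, 8 were higher (1.42 and 0.80). The remaining gene, the securin Pttg1, was at 84.6 and 44.3 CPM against 33.9 and 48.9 CPM. The core mitotic transcription factor Foxm1 was at 26.7 and 26.4 CPM against 0.6 and 1.0 CPM.

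**Figure D3:**
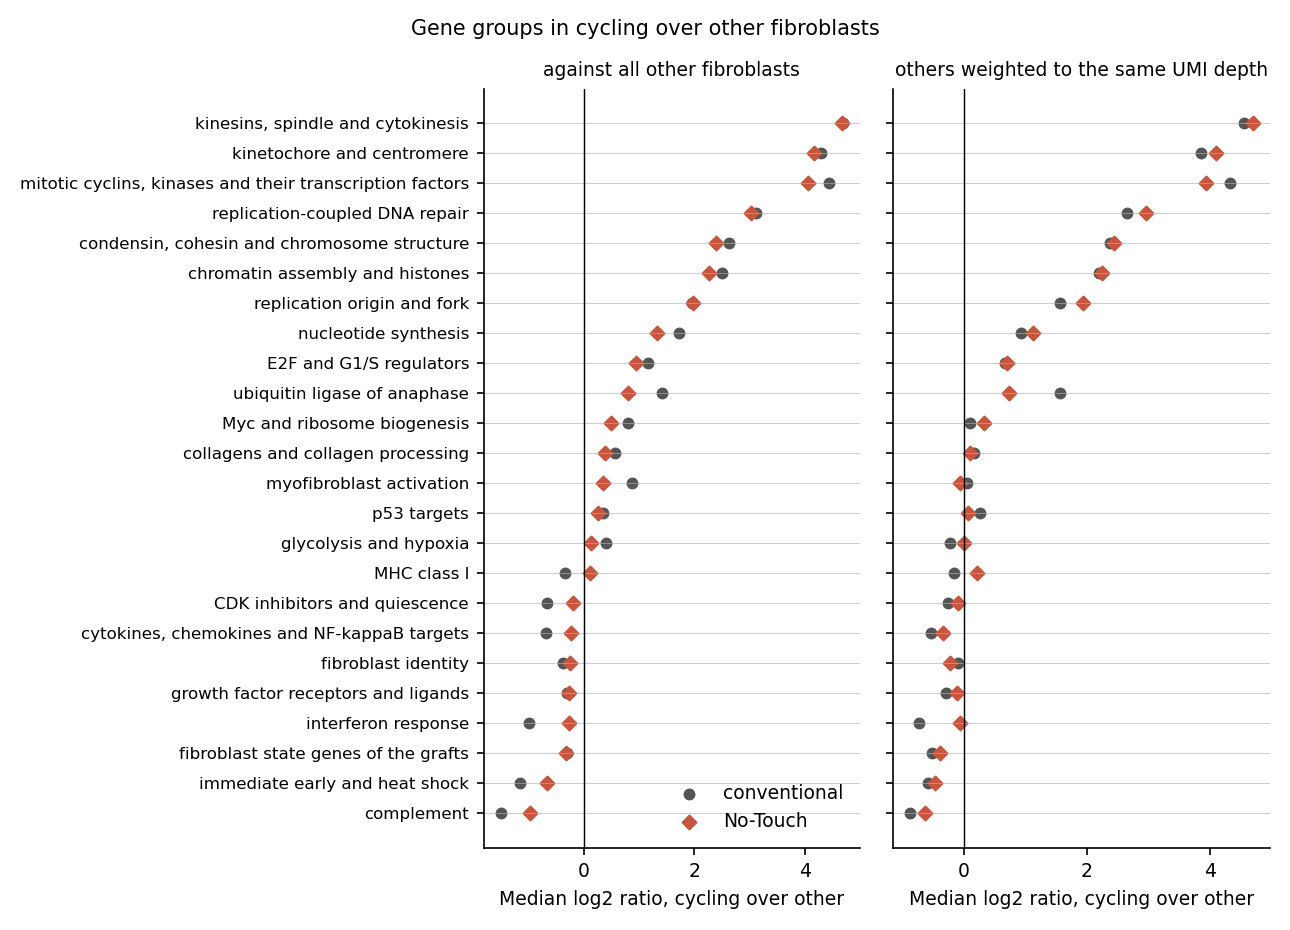
Median log2 ratio of 24 gene lists in cycling over other fibroblasts (horizontal axis), for the conventional (grey circles) and No-Touch library (red diamonds), against all other fibroblasts on the left and against others weighted to the members' UMI depth on the right. The 10 cell cycle lists lie to the right of 0 in both panels, and the complement and immediate early lists to the left.

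Some brakes of the cell cycle were lower in cycling cells, fewer of them once depth was matched. Of 17 CDK inhibitors and quiescence genes 4 were at least 1.5 times lower in both libraries and 1 higher (medians -0.67 and -0.20), where 4.75% of all genes were so lower. At equal depth 2 were lower and 2 higher (-0.26 and -0.10), where 1.55% and 5.90% of all genes were so. Among the 4 was Cdkn1c (chr7:143458339-143461050), which encodes p57, at 32.0 CPM (23.1 to 43.3) in conventional and 39.5 CPM (34.9 to 44.5) in No-Touch members against 119 and 118 CPM. Its log2 ratios were -1.86 and -1.56, and -1.06 and -1.12 against others of equal depth. Klf4, Btg2 and Foxo1, transcription regulators that hold back division in many cells, were the other 3, with ratios of -1.87 and -0.84 for Klf4 and -1.41 and -0.73 for Btg2. Foxo1 was at 30.5 CPM against 61.9 CPM in the conventional library and had a ratio of -0.66 in the other. Cdkn1a, which encodes p21, was at 277 and 352 CPM against 394 and 403 CPM, and the inhibitor Cdkn2c was the member that was higher, at 43.5 and 43.1 CPM against 17.7 and 21.6 CPM.

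Among the 15 genes of the lowest ratios were Apod, Fmo2, Cdkn1c, Gstm1, Scara5, Ogn, Ace, Abca8a, Selenop, Scn7a, Nox4, Dpep1, Entpd2 and Apoe. Apod (chr16:31296192-31314808), a lipid carrier of quiescent fibroblasts, was at 123 CPM (105 to 143) and 226 CPM (215 to 237) against 623 and 948 CPM, log2 ratios of -2.33 and -2.07. Ace, the angiotensin converting enzyme, was at 49.6 and 79.8 CPM against 274 and 226 CPM, and Nox4, an NADPH oxidase, at 41.2 and 54.3 CPM against 115 and 147 CPM. Apoe was at 188 and 328 CPM against 1539 and 843 CPM. At equal depth Apod had ratios of -1.61 and -1.16, Ace -1.82 and -0.99 and Apoe -1.83 and -0.65.

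Complement genes were lower as a group. Of 8 complement genes 8 were at least 1.5 times lower in both libraries (medians -1.50 and -0.97), as were 6 of 8 against others of equal depth (-0.87 and -0.64), where 1.55% of all genes were so lower. C3 (chr17:57203970-57228136), the central protein of the cascade, ranged over conventional members from 328 to 3179 CPM with a median of 1133, and over No-Touch members from 151 to 6125 CPM with a median of 944, while the overall level in other fibroblasts was 5813 and 2896 CPM. Serping1, the C1 inhibitor, was at 1244 and 1358 CPM against 3270 and 2553 CPM. Summed over the 8 genes, the median conventional member was at 3773 CPM and the median No-Touch member at 3668 CPM, against medians of 12478 and 9055 CPM over other fibroblasts.

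Immediate early genes, which serum, stress and tissue digestion can all induce, were lower too. Among the 20 immediate early and heat shock genes, 12 were lower by 1.5 times and 0 higher (medians -1.16 and -0.66), and 4 of 20 at equal depth (-0.58 and -0.47). Of all genes 4.75% were so lower, and 1.55% at equal depth. Fos was at 813 CPM (765 to 863) and 2203 CPM (2168 to 2238) against 2976 and 4738 CPM, and the stress factor Atf3 at 643 and 1016 CPM against 2003 and 2150 CPM. Heat shock genes stood apart from the transcription factors, with Hspa8 at 2193 and 1743 CPM against 2147 and 2262 CPM and Hsp90aa1 at 1375 and 795 CPM against 1006 and 739 CPM.

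Some growth and matrix genes were higher in cycling cells before depth was matched and none after. Of 16 genes of Myc and ribosome biogenesis 5 were higher (medians 0.80 and 0.49), such as the nucleolar protein Nop56 at 147 and 89.8 CPM against 51.8 and 49.9 CPM, and 0 of 16 at equal depth (0.09 and 0.33), where 5.90% of all genes were so higher. Myc itself was at 57.2 and 172 CPM against 92.9 and 254 CPM. Of 23 collagens and collagen enzymes outside the rule 5 were higher and 1 lower (0.55 and 0.38), and 0 and 0 at equal depth (0.15 and 0.09). Before matching, 11.0% of all genes were so higher and 4.75% lower. Loxl2, a collagen crosslinking enzyme, was at 540 and 695 CPM against 176 and 343 CPM with ratios of 1.61 and 1.02, which were 0.68 and 0.32 at equal depth. Col14a1, a collagen on fibril surfaces, was the 1 lower, at 486 and 621 CPM against 754 and 1115 CPM.

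Myofibroblast and glycolysis genes followed the same course. Among 17 myofibroblast genes 5 were higher (0.87 and 0.35), with Tpm2, a tropomyosin, at 271 and 246 CPM against 83.8 and 94.3 CPM, while at equal depth 0 were higher and 1 lower. Of all genes 11.0% were so higher, and 5.90% at equal depth. Of 15 genes of glycolysis and hypoxia 5 were higher and 1 lower (0.41 and 0.12), and 0 at equal depth. Pkm, pyruvate kinase, was at 622 and 338 CPM against 272 and 185 CPM over all other fibroblasts and against 647 and 236 CPM over those of equal depth. Of 12 p53 targets 0 passed 1.5 times in the same direction in both libraries (0.34 and 0.25), while 3 were higher in conventional and 2 in No-Touch members.

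Genes that define fibroblasts were present, some of them at a lower level. Of 17 identity genes outside the rule 4 were lower and 1 higher (medians -0.37 and -0.25), and at equal depth 1 was lower and 0 higher (-0.10 and -0.23). Of all genes 4.75% were so lower and 11.0% higher, and 1.55% and 5.90% at equal depth. Gsn, which severs actin filaments, was at 1154 and 1669 CPM against 4052 and 3689 CPM, and Mfap4, a microfibril protein, at 184 and 152 CPM against 483 and 375 CPM. Pdgfra, the receptor for the fibroblast mitogen PDGF, had a UMI in 25 of 26 and 103 of 104 members, at 169 and 212 CPM against 233 and 257 CPM. Of 21 genes that mark fibroblast states in these grafts, a list chosen with these data in view, 6 were lower and 2 higher, and at equal depth 4 of 20 lower and 1 higher. Pi16, of adventitial progenitors, was at 390 and 334 CPM against 866 and 819.7 CPM, Spp1, osteopontin, at 763 and 387 CPM against 285 and 94.5 CPM, and Crabp2, a retinoic acid carrier, at 142 and 195 CPM with log2 ratios of 2.04 and 0.96. Of the growth factor ligands and receptors 2 of 16 were higher, a share near the 11.0% of all genes, and at equal depth 0 were higher and 0 lower. The 2 were Hbegf and Ereg, both ligands of the EGF receptor, and the 1 lower before matching was Igf1, at 154 and 313 CPM against 397 and 572 CPM.

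Between the libraries, cycling fibroblasts of the No-Touch grafts had higher interferon response and MHC class I genes and lower glycolysis genes than those of the conventional grafts. Of 3581 genes of at least 50 CPM, 133 (3.71%) were higher and 64 (1.79%) lower by 2 times or more in No-Touch members. In other fibroblasts the same counts were 53 (1.72%) and 49 (1.59%) of 3080 genes, and they held 30 of the 133 and 18 of the 64. The conventional sums held 1311713 UMIs in members and 111685524 in other fibroblasts, so the 2 sets of counts differ in counting error. The part of that error and of single cells in the member counts was not tested. The median log2 ratio was -0.05 over the genes of at least 50 CPM. This contrast did not choose the members.

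In No-Touch members 18 of the 20 interferon response genes were higher by 1.5 times or more and 0 lower (median log2 1.77), where 12.8% of 8938 genes were so higher and the median over all was -0.01. In other fibroblasts 12 of 20 were higher (median 0.68) beside 6.38% of all genes, and 13 of 20 (0.76) beside 8.26% when those cells were weighted to the members' depth. Whether cycling and other fibroblasts differ in this was not tested. Isg15 (chr4:156199424-156200818), a ubiquitin-like protein that interferon induces, ranged over conventional members from 0 to 104 CPM with a median of 19.5, and over No-Touch members from 0 to 2078 CPM with a median of 239. It had a UMI in 17 of 26 and 102 of 104 members. Summed, it was at 43.5 CPM (32.9 to 56.3) and 349 CPM (335 to 363), a fold of 8.03, against 130.0 and 422 CPM in other fibroblasts. Most No-Touch members thus lay above the conventional range, though the ranges overlapped at their low end.

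Other interferon genes had the same order. Iigp1, an immunity-related GTPase, was at 74.7 CPM (60.7 to 91.0) and 731 CPM (711 to 752), with per-cell medians of 39.1 and 236 CPM. Irgm1, of the same family, was at 9.15 and 82.9 CPM, with 12 UMIs in all in the conventional members, 58.3% of them from 1 cell. Ifit3, an antiviral protein, had 2 UMIs in the conventional members and 380 in the No-Touch members, too few for a fold. Gbp2, a guanylate-binding protein, was at 41.2 and 144 CPM, a log2 ratio of 1.78, while in other fibroblasts it was at 169 and 187 CPM, a ratio of 0.15. Irf7 and Ifit2 were the 2 genes that did not pass 1.5 times, with ratios of 0.19 and 0.39.

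Over the 20 genes summed in each cell, conventional members ran from 366 to 2775 CPM with a median of 1241, and No-Touch members from 550 to 23335 CPM with a median of 2970. Of the 104 No-Touch members 58 lay above the highest conventional member and 0 below the lowest. In other fibroblasts the medians were 2428 and 3995 CPM. Conventional cycling cells lay below their own library's other fibroblasts (median log2 of the list -0.996, and -0.73 at equal depth), and No-Touch ones close to theirs (-0.28 and -0.06). Against 26 drawn conventional fibroblasts of matched depth the first value was 0.21, so the distance within the conventional library depends on which deep cells it is set against. Within the No-Touch members, those above both cell cycle marks had a median of 2560 CPM, those above the mitotic mark alone 3161 and those above neither 4774 CPM.

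**Figure D4:**
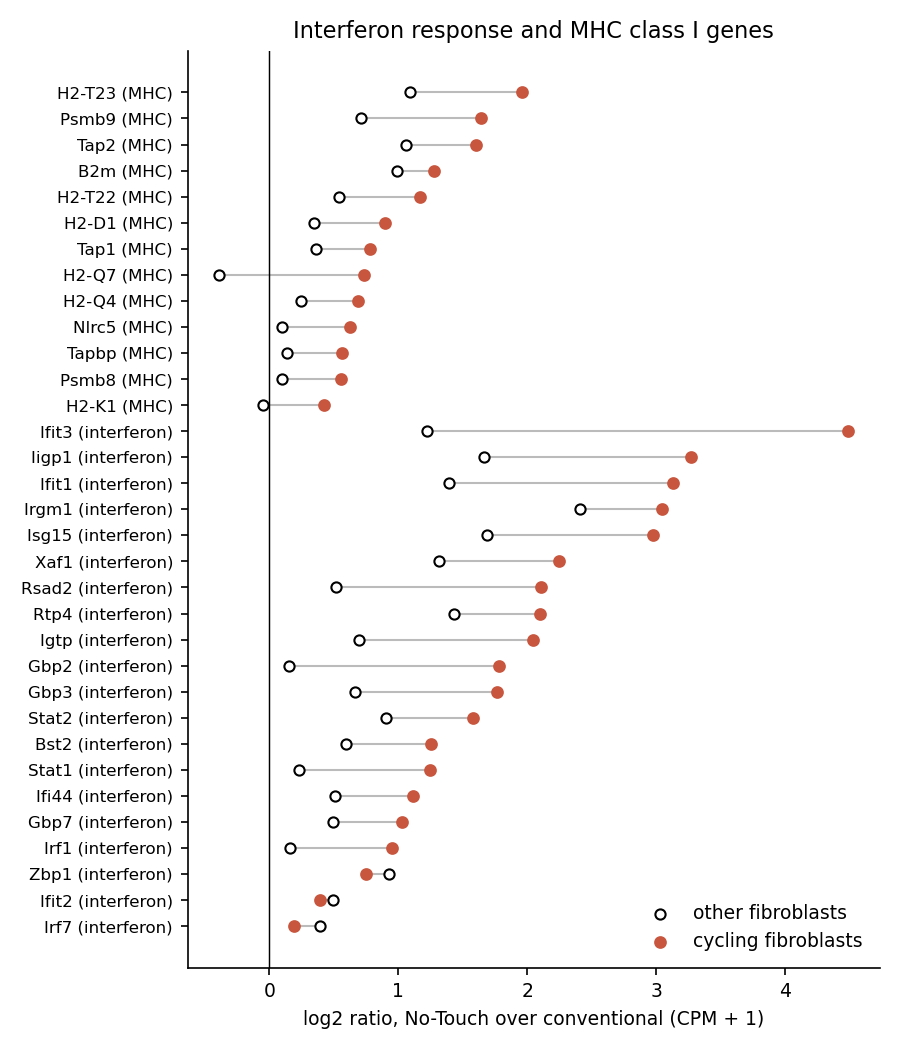
log2 ratio of No-Touch over conventional (horizontal axis, CPM + 1) for 20 interferon response and 13 MHC class I genes in cycling (red) and other fibroblasts (open circles). All 33 red points lie to the right of 0, and Irf7, Ifit2 and Zbp1 are the genes whose red point lies left of the open one.

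The interferon-induced chemokines Cxcl9 and Cxcl10, which attract T cells, were at 56.4 and 629 CPM and at 150.2 and 754 CPM. Their per-cell medians were closer, 22.3 and 77.3 CPM for Cxcl9 and 81.1 and 109 CPM for Cxcl10, and single No-Touch members reached 7787 and 8533 CPM. Without the 10 No-Touch and 1 conventional members that held T cell, NK cell or antibody RNA, the interferon median was 1.83, and over all alternatives it ran from 1.11, with only 2 rule genes required, to that value.

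MHC class I genes, which show peptides to CD8 T cells, went the same way. Of 13 genes 10 were higher and 0 lower (median 0.78). In other fibroblasts 4 of 12 were higher (0.36), and 4 of 12 at the members' depth (0.56). Of all genes 12.8% were so higher in members, 6.38% in other fibroblasts and 8.26% in those weighted to the members' depth. B2m (chr2:122147686-122153083), the light chain, ranged over conventional members from 228 to 2809 CPM with a median of 1002, and over No-Touch members from 527 to 8465 CPM with a median of 2820, so that the ranges overlapped around a higher centre in the No-Touch library. H2-T23, a nonclassical heavy chain, was at 50.3 and 199 CPM, the peptide transporter Tap2 at 16.0 and 50.6 CPM and the immunoproteasome subunit Psmb9 at 33.5 and 107 CPM. Heavy chain genes are near copies of each other, and the sources used here do not say how reads were divided between them.

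**Figure D5:**
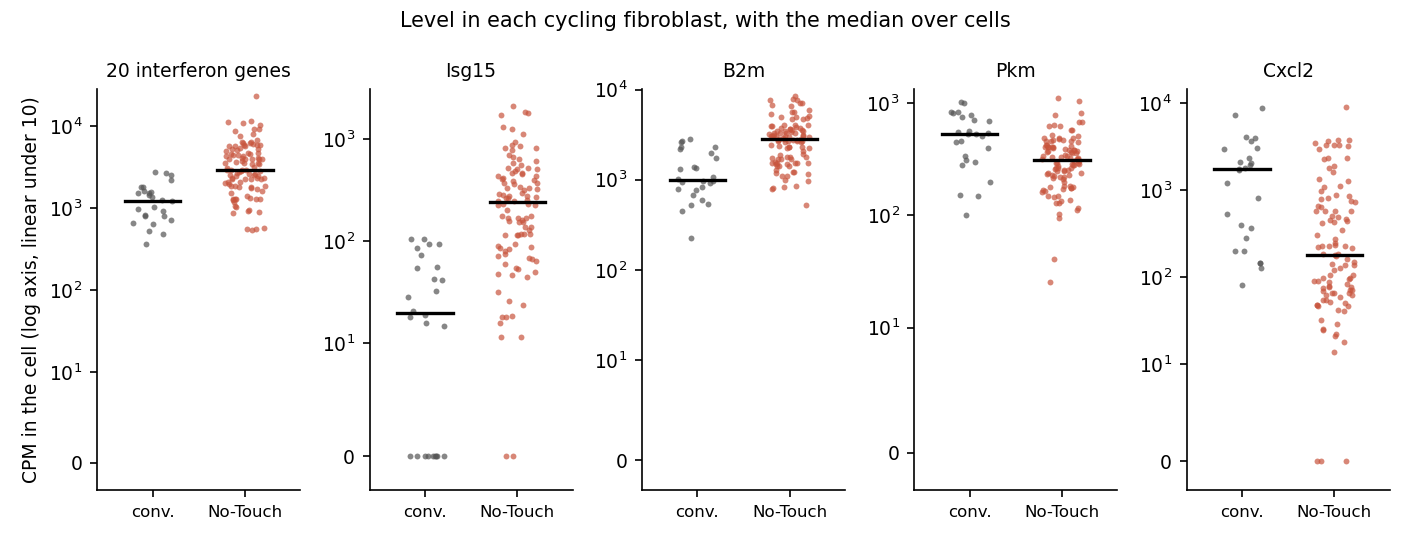
Level in each cycling fibroblast (vertical axis, CPM in the cell, log axis that is linear under 10) of the summed 20 interferon genes, Isg15, B2m, Pkm and Cxcl2, for 26 conventional and 104 No-Touch cells. Black lines are medians over cells, which are higher in the No-Touch library in the first 3 panels and lower in the last 2.

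Glycolysis genes were lower in No-Touch members. Of 15 genes of glycolysis and hypoxia 8 were lower by 1.5 times or more and 0 higher (median -0.61), where 9.50% of all genes were so lower. Eno1, an enolase, was at 345 CPM (314 to 379) and 155 CPM (146 to 165), and Pkm at 622 CPM (580.1 to 666) and 338 CPM (325 to 352), with per-cell medians of 530.5 and 309 CPM. In other fibroblasts 3 of 15 were lower (-0.35) beside 3.41% of all genes, and 12 of 16 at the members' depth (-0.97) beside 8.38%. With the fibroblast gate raised to 3% of UMIs, which left 12 conventional members, the median in cycling cells was -0.14.

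In each of the cell cycle lists most genes were less than 1.5 times apart between the libraries. Of 27 replication genes 2 were higher and 3 lower in No-Touch members (median -0.07), of 22 mitotic cyclins and kinases 0 and 6 (-0.35), and of 27 kinetochore genes 2 and 9 (-0.37). Of all genes 12.8% were so higher and 9.50% lower. Ccnb1, cyclin B1, was at 101 and 56.9 CPM, Aurka, the spindle pole kinase, at 38.9 and 20.2 CPM, and Cks2 at 255 and 263 CPM. The members above neither cell cycle mark, 14 of 104 against 1 of 26, are part of these sums. The replication median had the other sign with doublets removed (0.55) and with the 3% gate (0.69), so no direction can be given for it.

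Of the cell cycle brakes, 7 of 17 were higher in No-Touch members and 0 lower (median 0.45), where 12.8% of all genes were so higher. In other fibroblasts 1 of 17 was higher (0.10) beside 6.38% of all genes, and 4 of 17 at the members' depth (0.48) beside 8.26%. Cdkn2a, which encodes p16 and p19ARF, was at 17.5 and 57.5 CPM, and Txnip, which binds thioredoxin, at 99.9 and 233 CPM. Klf4 was at 255 CPM (229 to 284) and 603 CPM (585 to 622). Myc had the same direction, 57.2 and 172 CPM, with a UMI in 16 of 26 and 100 of 104 members, and its ratio was 1.57 in cycling and 1.44 in other fibroblasts.

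Among inflammatory genes the direction depended on the gene. Of 23 cytokine, chemokine and NF-kappaB genes 4 were higher and 7 lower (median -0.17), against 3 and 13 of 23 in other fibroblasts (-0.71). Of all genes 12.8% were so higher and 9.50% lower in members, and 6.38% and 3.41% in other fibroblasts. Cxcl2, a neutrophil chemokine, ranged over conventional members from 81.8 to 8705 CPM with a median of 1744, and over No-Touch members from 0 to 9074 CPM with a median of 181. The medians lay far apart and the ranges overlapped almost wholly. Icam1, to which leukocytes bind, was at 644 and 351 CPM, and Ccl2, a monocyte chemokine, at 2261 and 4013 CPM. Saa3, an acute phase protein, was at 866 and 909 CPM in members and at 4066 and 1064 CPM in other fibroblasts, and 31.7% and 38.9% of the members' UMIs came from 1 cell each.

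Matrix genes differed by member. Of 23 collagens and collagen enzymes 6 were higher and 2 lower (median 0.31), against 6 and 1 in other fibroblasts (0.29). All genes gave 12.8% higher and 9.50% lower in members, and 6.38% and 3.41% in other fibroblasts. Col18a1 (chr10:77052178-77166548), a basement membrane collagen, was at 67.1 CPM (53.8 to 82.7) and 256 CPM (244 to 268) in members and at 70.9 and 111 CPM in other fibroblasts. The collagen crosslinking enzyme Lox was lower, at 736 and 321 CPM. Eln, elastin, and Mgp, an inhibitor of calcification, were among the 15 highest ratios, at 124 and 468 CPM and at 598 and 2312 CPM, but 22.5% and 22.7% of their No-Touch UMIs came from 1 cell, and the Mgp ratio was -0.37 when 2 rule genes sufficed. Of the complement genes 2 of 8 were higher and 0 lower (0.30), beside the same 12.8% and 9.50% of all genes, with C3 at 1323 and 1423 CPM.

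Several of the largest ratios rested on 1 cell. Of the 15 highest, Car3, a carbonic anhydrase of fat and muscle, had 99.6% of its No-Touch UMIs in 1 cell and was at 0 in conventional members. Jchain had 97.9% and Fabp4, the fatty acid carrier of fat and capillary cells, 81.2% in 1 cell, and without each library's top cell the Jchain ratio was -0.13. The remaining 12 were Cxcl9, Iigp1, Ifit1, Isg15, Cxcl10, Nr1d1, Rtp4, H2-T23, Mgp, Col18a1, Eln and Lpl. Nr1d1, a repressor in the circadian clock, was at 25.2 CPM (17.3 to 35.3) and 126 CPM (117 to 134), with a UMI in 14 of 26 and 98 of 104 members, and had a like ratio in other fibroblasts (2.28 and 2.53).

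The 15 lowest ratios were those of Gt(ROSA)26Sor, Pth, Ctla2a, Cxcl14, Il1rl1, Ereg, Lars2, Serpinb2, Inhba, Chl1, Crispld2, Cxcl2, Nt5dc2, Prg4 and Tuba1c. Gt(ROSA)26Sor, a noncoding transcript, was at 282 and 16.9 CPM, with a ratio of -3.99 in cycling and -3.84 in other fibroblasts. Pth, parathyroid hormone, had a UMI in 26 of 26 conventional members at 191 CPM and in 55 of 104 No-Touch members at 11.3 CPM. It was at 247 and 84.7 CPM in other fibroblasts and at 459 and 48.2 CPM in neutrophils, lower in the No-Touch library in each case. In other fibroblasts weighted to the members' depth the order turned, with 205 and 294 CPM, a log2 ratio of 0.51, and the part of free RNA in it was not tested. Ctla2a had 83.3% of its conventional UMIs in 1 cell, and its ratio of -2.70 was -0.62 without each library's top cell. Cxcl14, Serpinb2 and Inhba had 38.8%, 44.8% and 51.8% of their conventional UMIs in 1 cell. Of Il1rl1, the receptor for IL-33, conventional members held 242 CPM in 12 of 26 cells and No-Touch members 51.1 CPM in 27 of 104. With the 3% gate its ratio and that of Inhba turned positive, at 0.36 and 0.21.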

How the data were processed

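Single-cell RNA was measured in 2 libraries, grouped by their sample titles. The authors deposited UMI counts per gene and barcode, 1 filtered matrix per library, 32285 genes each, with no normalization. Per the submitters' processing notes the counts came from Cell Ranger 3.1.0 on mm10, but cellranger 6.0.0 wrote the matrices per the file headers, a difference that could not be settled. The sources used here do not say if counting used strand, so antisense transcripts are uncertain.

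The members, gene lists and comparisons were chosen with earlier results of these data known. UMIs were summed per library over cycling and over other fibroblasts and scaled to counts per 1000000 of the sum (CPM). Ratios are log2 of CPM + 1, which understates differences of low genes. Genes of at least 50 CPM in either group were counted when 2 times apart, list members of at least 10 CPM when 1.5 times apart. The 24 lists leave out genes of the rule, and 12 marker lists cover other cell types. Genes are named when among the 15 highest or 15 lowest ratios at 100 CPM or more (for cycling against other cells by the smaller ratio, in the same direction in both libraries), without genes of the rule, mitochondrial, ribosomal, haemoglobin, immunoglobulin, sex-linked and predicted genes; some genes the rule picks are not reported here. From each list up to 4 members of large ratio are named, and further list members, such as Pcna, Ccnd2, Cdkn1a and Myc, were picked after their values were seen. The 74 mitotic genes come from the cyclin, kinetochore and kinesin lists without rule genes, tubulins, Stmn1 and Cks1b.

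To match depth, other fibroblasts were weighted to the members' UMI depth in 4 bins per library. Doublets were kept. As an alternative the highest Scrublet scores were removed, 0.8% per 1000 barcodes (8.37% and 9.22%), because its automatic threshold marked 2.30% and 0%. Count intervals are Garwood's, share intervals Clopper-Pearson's. The counting steps were tested on simulated data with known ratios. Positions come from GENCODE M21, where 60 of 60 named genes had one, and promoters from RefSeq on GRCm38.p6. Tools were Python 3.11.15, numpy 2.4.6, scipy 1.17.1, pandas 2.3.3, scanpy 1.11.5 and edgeR 4.0.16 (TMM factors only). Alternatives for rule genes, gates, scaling, minimum and pseudocount are given in the closing section.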

Additional observations from a re-analysis of the deposited data

Results flagged for a closer look

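Lcn2, an iron-carrying protein of inflammation, went opposite ways in the 2 libraries, a difference that was not tested. In the conventional library it was lower in cycling than in other fibroblasts, at 147 CPM (127 to 169) against 342 CPM, a log2 ratio of -1.21. In the No-Touch library it was higher, at 81.4 CPM (74.8 to 88.5) against 49.3 CPM, a ratio of 0.71. It had a UMI in 17 of 26 and 39 of 104 members, and 1 cell gave 61.1% of the conventional and 33.3% of the No-Touch UMIs. Against other fibroblasts of equal depth the ratios were -0.61 and 0.40.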

How the results depend on the processing

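No paired analysis was possible because each group is 1 library. The cycling share stayed higher in the No-Touch library under all 10 alternatives, with ratios from 1.49 to 3.41. The bounds of the ratio from each share's far limit took in 1 after thinning and with genes of other cell types at 0. The cause of the movements below was not tested. The 104 genes higher and 57 lower in cycling cells became 52 and 21 with 2 rule genes required, 164 and 143 without barcodes holding Ptprc, Pecam1, Rgs5 or Myh11, 69 and 2 against drawn fibroblasts of matched depth, and 504 and 193 with no CPM minimum. With a minimum of 100 CPM 56 were higher. Lower genes numbered 104 with TMM, 93 with median-of-ratios scaling, 90 with cells weighted equally and 5 against depth-weighted others. The 133 higher and 64 lower genes of No-Touch members became 201 and 141 without barcodes of other cell type genes, 72 and 39 at 100 CPM and 1457 and 515 with no minimum. Directions turned for Mgp with 2 rule genes (-0.37), for Jchain (-0.84), Il1rl1 (0.36) and Inhba (0.21) with the 3% gate, for Prg4 (0.16) with doublets removed, for Fabp4 (-2.51) and Cxcl14 (0.94) without barcodes of other cell type genes, and for Jchain (-0.56) without T, NK and Jchain barcodes. Against matched fibroblasts the conventional medians of the Myc list (-0.11) and the interferon list (0.21) turned. Medians less than 1.5 times from equal could also take the other sign, such as that of replication between libraries (0.55 with doublets removed, 0.69 with the 3% gate). Over all single values, those above included, 2126 stayed, 132 moved by more than their counting interval or beyond 1.5 times and 10 were counted as turned. Alternatives with 10000 UMIs, a 1% gate, equal weights, depth weights, the deepest member left out and T, NK and Jchain barcodes removed were chosen after seeing the data. The 26 conventional members limit every value between libraries.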
